A study of Mus musculus with 4 samples.

Results

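The comparison set 1 library of activated CD4+ T cells labelled as a double knockout of Itch and WWP2 against 1 library of Itch knockout cells, 2 of the 4 libraries in the study. The members were defined by their labels, but they and the gene lists were chosen with earlier results of these data known. They were read with the wild-type library, which shows what each gene did when Itch was deleted, and with the WWP2 knockout library. All 4 were RNA sequencing libraries of CD4+ T cells from the spleens of B6 mice aged 6 weeks, stimulated with PMA, a phorbol ester that activates protein kinase C, and ionomycin, which lets calcium into the cell. Wild type carried neither deletion. Itch KO was Itchf/f Cd4cre, a floxed Itch allele removed by a Cre recombinase that the Cd4 promoter drives in the T cell lineage, so that other cells keep the gene. WWP2 KO was WWP2-/-, a deletion not limited by a Cre. DKO is labelled as lacking Itch and WWP2. Neither the duration of stimulation nor the number of mice per library is known from the sources used.

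Itch and WWP2 are ubiquitin ligases of the NEDD4 family, which use WW domains to bind short proline-rich motifs in their substrates or adaptors and attach ubiquitin through a HECT domain. In T cells Itch is known for limiting type 2 helper (TH2) responses, in part by marking the transcription factor JunB for degradation. Mice without it develop inflammation with TH2 cytokines, the signals that drive eosinophils, mucus and IgE. WWP2 belongs to the same family, and the study asked what these ligases do when CD4+ T cells are activated.

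The libraries were close in depth, with total counts from 17130747 to 17990392 reads, and the 10 most abundant genes took 6.23% to 7.13% of them. Of 21937 genes in the table, 9926 had a mean of at least 2 CPM (scaled counts, with every library brought to 1 size) over the 4 libraries and entered the comparison. With 1 library per genotype replicate spread could not be measured, and neither genes nor lists have a p-value. A size rule took its place. A gene passed when its ratio of scaled counts was at least 2-fold (a log2 ratio of 1, computed with a prior count of 2, which shrinks the ratios of low counts) and the exact binomial 95% interval of the fold excluded 1. Such an interval covers counting error only. A gene that passed differed between 2 libraries, which need not be a difference between 2 genotypes. Read counts below are given in a fixed order, first wild type, then Itch KO, WWP2 KO and last the library labelled double KO.

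The targeted genes put the second label in doubt. Wwp2 had 1363, 1332, 4 and 1135 reads, so it was nearly absent from WWP2 KO but stood in the library labelled double KO at 0.795 times the level of Itch KO (95% interval 0.734 to 0.861). Itch had 2083, 1914, 1996 and 2389 reads, and the gene-level count therefore did not mark either Itch-deficient label. Where in a gene these reads lay is not shown by the table, so a transcript that lacks a deleted part cannot be told from an intact one. The word "labelled" is kept throughout for this reason. Of the 9926 genes, 15 passed the rule as higher in WWP2 KO against wild type and also from Itch KO to the library labelled double KO, pairs with no library in common. Among all genes, 0.282% were that much higher in WWP2 KO than in wild type and 0.161% that much lower. Mid1, which encodes a microtubule-bound ubiquitin ligase, was 1 of the 15, with 89, 185, 2570 and 3839 reads. Setbp1, which encodes a SET-binding protein, was another, with 79, 124, 333 and 915. Both were higher in the 2 libraries whose labels name WWP2 than in the other 2.

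Set against Itch KO, the library labelled double KO had 911 genes past the rule on the higher side (9.18% of those compared) and 512 on the lower side (5.16%). The step from wild type to Itch KO was smaller, with 485 genes (4.89%) higher and 84 (0.846%) lower. The median log2 ratio over all genes was 0.03 in the second step and -0.02 in the first. Both steps use the Itch KO library, so counting noise in it pushes the 2 ratios of a gene in opposite directions.

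Most genes that Itch KO had raised went further in the same direction. Of the 485, 304 (62.7%) passed the rule as higher again, 86 (17.7%) stayed level, here a fold between 0.667 and 1.5, 70 (14.4%) lay between these limits, and 25 (5.15%) passed the size rule the other way. The median second step of the 485 was 1.31 on the log2 scale, and 412 of them were higher by any amount. Genes that Itch KO had lowered divided more evenly. Of the 84, 26 (31%) went further down, 31 (36.9%) stayed level, 18 (21.4%) lay in between and 9 (10.7%) came back up past the rule. The median second step of the 84 was -0.39.

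The second step was also made of genes that Itch KO had left alone. Of the 911 genes higher in the library labelled double KO, 423 (46.4%) had been level between Itch KO and wild type, against 304 (33.4%) already raised. Of the 512 lower genes, 380 (74.2%) had been level, 26 were already lowered and 25 were already raised. Level genes were the bulk of the comparison, 8561 of 9926, while 485 (4.89%) had been raised. Of the 8561, 4.94% passed as higher and 4.44% as lower, against 9.18% and 5.16% of all genes. Level genes thus passed less often than genes at large.

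**Figure D1:**
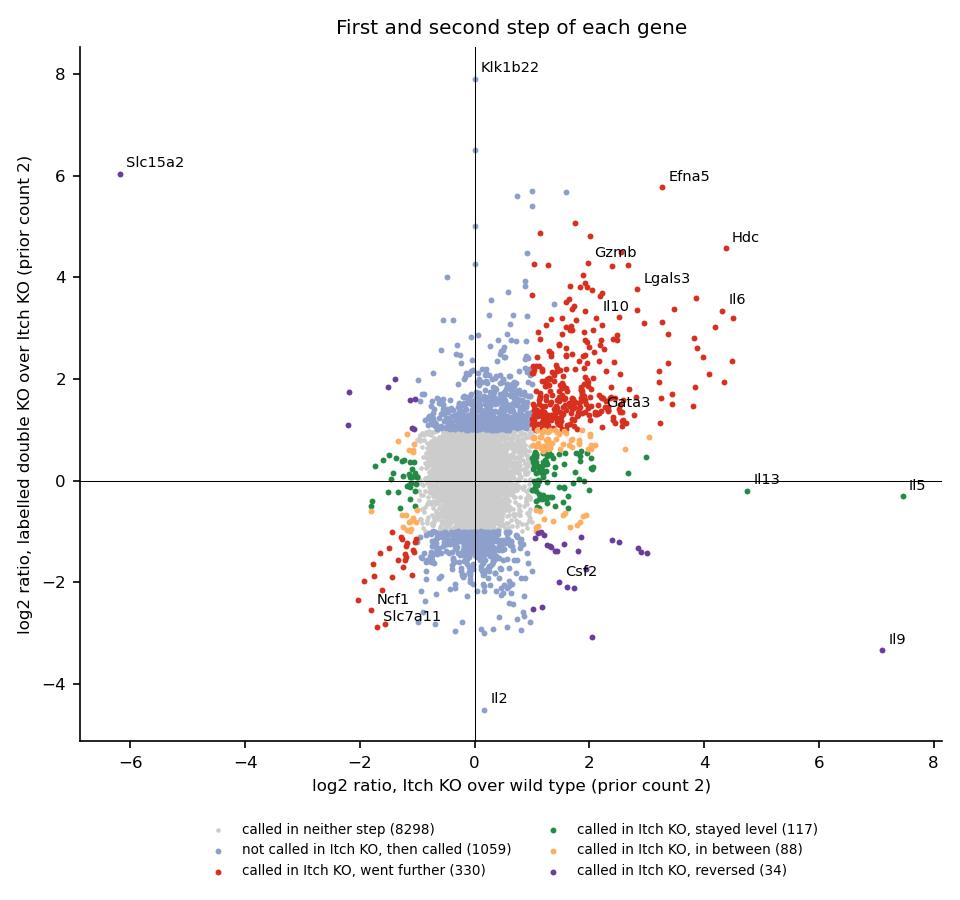
Each point is 1 of the 9926 genes, with the log2 ratio of Itch KO over wild type on the horizontal axis and of the library labelled double KO over Itch KO on the vertical axis, both with a prior count of 2. Colours give the class of the gene, where "called" means past the size rule, and the number of genes in each class stands in the key: red genes went further in the same direction (330), purple genes reversed (34), and blue genes passed the rule only in the second step (1059).

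Mitosis genes climbed at both steps. Cells that divide switch on the spindle, kinetochore and cyclin B genes together in G2 and M phase. Of 35 measured mitosis genes, 32 passed the rule as higher from Itch KO to the library labelled double KO and none as lower, and all 30 that Itch KO had raised were among the 32. In bulk RNA a larger share of dividing cells and more of this RNA per cell cannot be told apart, and the same holds for every gene below. The median of the list was 1.44 on the log2 scale in this step and 1.75 in the first. Cdk1, the kinase that drives entry into mitosis, had 34, 145, 36 and 544 reads. Ube2c, the E2 enzyme of the anaphase-promoting complex, had 32, 131, 42 and 514. Both stood 4-fold or more above wild type in Itch KO, by 4.26-fold and 4.09-fold, and then went up again by 3.5-fold and 3.66-fold. Mki67, the source of the Ki-67 proliferation antigen, had 289, 1413, 243 and 4123 reads, and Top2a, the topoisomerase that untangles replicated chromosomes, 403, 1737, 438 and 4613. WWP2 KO lay beside wild type for each of these 4 genes. The 3 genes that did not pass were Cenpa (1.91-fold), Mad2l1 (1.66-fold) and Bub3 (1.16-fold).

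DNA replication genes moved less uniformly. Of 34 measured, 10 were at least 2-fold higher and 1 lower, with a median of 0.52, against 6 higher in the first step. E2f2, a transcription factor of the G1 to S transition, had 22, 98, 28 and 431 reads. Tyms, thymidylate synthase, had 82, 107, 48 and 405, so it stood apart in the library labelled double KO alone. The helicase subunit gene Mcm2 was at 0.922 times its Itch KO level and the sliding clamp gene Pcna at 0.865 times. Ung, which removes uracil from DNA, had 970, 1091, 899 and 325 reads and was the 1 lower member.

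The promoters of these lists carry different letters, and 3 are shown as examples, from 2 mitosis genes that went further and 1 replication gene that passed only in the second step. Sequences are RefSeq, build GRCm38.p6, read 5′ to 3′ on the strand of the gene, ending at its start site. Capitals mark a match to 1 of 3 E2F motifs (TTTCCCGC, TTTGGCGC or TTTCGCGC) or to the cell cycle homology region (TTTGAA), on either strand. Cdk1 lies at chr10:69352913-69353062 (minus strand), Ube2c at chr2:164769829-164769928 (plus strand) and the replication licensing gene Cdc6 at chr11:98908001-98908150 (plus strand).
Cdk1: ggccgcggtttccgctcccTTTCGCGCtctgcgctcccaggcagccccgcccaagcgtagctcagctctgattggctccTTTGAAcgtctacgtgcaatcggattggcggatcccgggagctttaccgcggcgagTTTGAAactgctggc
Ube2c: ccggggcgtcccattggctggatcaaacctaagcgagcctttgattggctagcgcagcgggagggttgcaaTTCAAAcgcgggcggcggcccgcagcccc
Cdc6: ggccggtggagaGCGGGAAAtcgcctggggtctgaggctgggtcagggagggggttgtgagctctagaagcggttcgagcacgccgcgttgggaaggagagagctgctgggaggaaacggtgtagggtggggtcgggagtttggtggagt

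Windows reached from 250 bases before to 50 bases after each start site. The cell cycle homology region, which binds the complex that holds mitotic genes silent in resting cells, was in a window of 23 of 30 mitosis genes with a window (76.7%), of 4 of 30 replication genes (13.3%) and of 20.2% of all 27025 genes in the promoter table. An E2F motif was in a window of 12 of 30 replication genes (40%), of 1 of 30 mitosis genes (3.33%) and of 2.12% of all genes. That 1 mitosis gene was Cdk1, so the promoter shown above is not typical of its list in this. No E2F motif contains the shorter one. A match describes these letters and is not evidence of binding. Cdc6 itself had 20, 33, 21 and 117 reads.

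The G1 machinery did not follow mitosis. Of 14 measured G1 and CDK inhibitor genes, 3 were higher and 2 lower. Cyclin D2 (Ccnd2), which partners CDK4 in early G1, had 20538, 30500, 22698 and 11259 reads, and Cdk4 itself 4499, 3839, 3745 and 1864. Both were lowest in the library labelled double KO. The pocket protein gene Rbl2, which holds cells in G0, had 461, 531, 1019 and 2226 reads, and the CDK inhibitor gene Cdkn1b (p27) had 768, 720, 901 and 1601. Both were highest in that library, beside the mitotic genes.

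**Figure D2:**
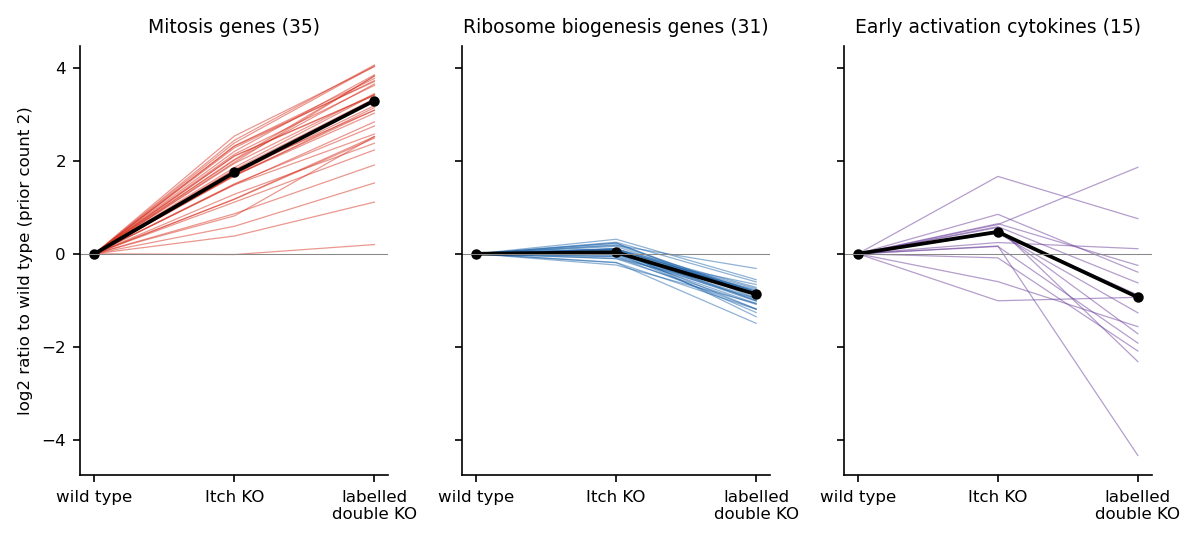
Each thin line is 1 measured gene, drawn from wild type (set to 0) to Itch KO and to the library labelled double KO on the log2 ratio to wild type with a prior count of 2, and the black line joins the medians. Mitosis genes (35) climb at both steps, ribosome biogenesis genes (31) stay near 0 in Itch KO and drop only afterwards, and early activation cytokines (15) spread out and mostly drop at the second step.

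Effector and memory genes went further as a group. These encode proteins that antigen-experienced T cells carry for adhesion, migration and survival. Of 26 measured, 14 passed as higher in the second step and none as lower, with a median of 1.16, and 11 of the 16 that Itch KO had raised were among the 14. Lgals3 (galectin-3, a sugar-binding protein) had 31, 234, 45 and 3430 reads, a 13.7-fold step from Itch KO (95% interval 12.0 to 15.7). S100a6, a calcium-binding protein, had 106, 448, 82 and 3737 reads, and Lgals1 (galectin-1) had 252, 1156, 220 and 7919. Prdm1, the gene of the effector regulator Blimp-1, had 228, 889, 211 and 3620. In all 4 the order was the same, with wild type and WWP2 KO low, Itch KO in the middle and the library labelled double KO on top. Cd44, the usual surface marker of experienced T cells, did not follow, with 6820, 10980, 6587 and 12172 reads and a second step of 1.03-fold.

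Granzyme genes were among the farthest apart of the abundant genes. Gzmb, a serine protease that cytotoxic cells deliver into their targets, had 767, 3025, 480 and 62971 reads, 19.4-fold above Itch KO (18.7 to 20.2). Gzma had 17, 345, 13 and 3040 reads. Gzmc, another granzyme, had 15, 23, 11 and 195, low in every library but the last. Of 10 measured cytotoxic granule genes 4 passed as higher and 1 as lower, and the median of 0.17 stayed near that of all genes. The perforin gene Prf1 was below the level filter.

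Histamine and lipid mediator genes were the list with the highest median, 1.90 over 8 measured genes, of which 5 were higher and none lower. The other 8 genes of the list were below the level filter. Hdc, the enzyme that makes histamine, had 19, 433, 28 and 11148 reads, a 22.8-fold step to Itch KO and a further 24.0-fold step (21.8 to 26.5). Ptgir, the prostacyclin receptor, had 21, 73, 39 and 832, and Cysltr1, a receptor for cysteinyl leukotrienes, 43, 764, 45 and 3518. Hpgds, which makes prostaglandin D2, had 77, 46, 62 and 221 and had not been raised in Itch KO. Hdc and Hpgds are also used as genes of basophils and mast cells. The other 11 marker genes of those cells in the table summed to 24.9, 11, 28.9 and 5.49 CPM (431, 191, 495 and 102 reads). The fall of that sum was that of Kit alone, whose reads are given below. Without Kit these markers had few reads in every library, and most in the library labelled double KO. The number of the 11 without a read was 9, 8, 9 and 6, so it was smallest in the library labelled double KO. Fcer1a, Ms4a2 and Cma1 were among those without a read there. The part of these cells in the result was not tested.

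Some genes of the IL-1 and IL-18 receptor family, through which TH2 cells sense alarm signals from tissue, went the same way. The list holds secreted inhibitors and signalling proteins beside the receptors. Of 15 measured genes, 6 were higher and none was lower. The median was 0.59, and 9 of the 15 had a ratio above 0. Il1rl1, the IL-33 receptor ST2, had 249, 1785, 266 and 19545 reads. Il1r1, the signalling receptor for IL-1, had 8, 20, 4 and 690, a 32.2-fold second step (20.7 to 53.0) from a level close to none. The decoy receptor gene Il1r2 had 143, 290, 119 and 1489, and Il1rn, the receptor antagonist, 4, 86, 10 and 572. The agonist receptor, the decoy and the antagonist were thus all highest in the library labelled double KO. Il18r1, a chain of the IL-18 receptor, stayed level with 388, 848, 520 and 752 reads.

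TH2 cytokines separated into genes that went further, stayed level and turned back, although Itch KO had raised all 9 that were measured, with a median first step of 3.04. In the second step 3 were higher and 2 lower, with a median of 0.63. Il10, an anti-inflammatory cytokine, had 103, 455, 95 and 4524 reads, a further 9.28-fold (8.42 to 10.2). Il6 had 1, 57, 1 and 641 reads, a further 10.5-fold. Areg, an epidermal growth factor receptor ligand, had 235, 710, 288 and 2000. These 3 climbed at both steps.

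Il5, the eosinophil growth factor, was the gene raised most by Itch KO, with 11, 2290, 11 and 1990 reads, and then stood at 0.811 times the Itch KO level (95% interval 0.763 to 0.862). Il13, which drives mucus production, had 117, 3206, 219 and 2997 reads and stood at 0.872 times. Both differed from Itch KO by more than counting error but lay inside the level limits. Il4, the cytokine that sustains TH2 identity, had 27, 236, 31 and 460 reads, 1.82-fold above Itch KO, and Il3 had 16, 109, 3 and 182. These 2 were higher by less than the rule requires.

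Il9 and Csf2 turned back. Il9, a mast cell growth factor, had 1, 406, 4 and 41 reads, so it fell 10.6-fold (7.68 to 15) from Itch KO to the library labelled double KO and remained above the other 2 libraries. Csf2, the gene of GM-CSF, had 121, 337, 143 and 89 reads and was lowest in the library labelled double KO. The letters AGATAA or TGATAA, the core that GATA factors bind, stood in a window of 5 of 9 TH2 cytokine genes with a window (55.6%) and of 21% of all genes. Il13, Il4 and Il6 were among the 5, and no match was found for Il5, Il9 or Il10.

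**Figure D3:**
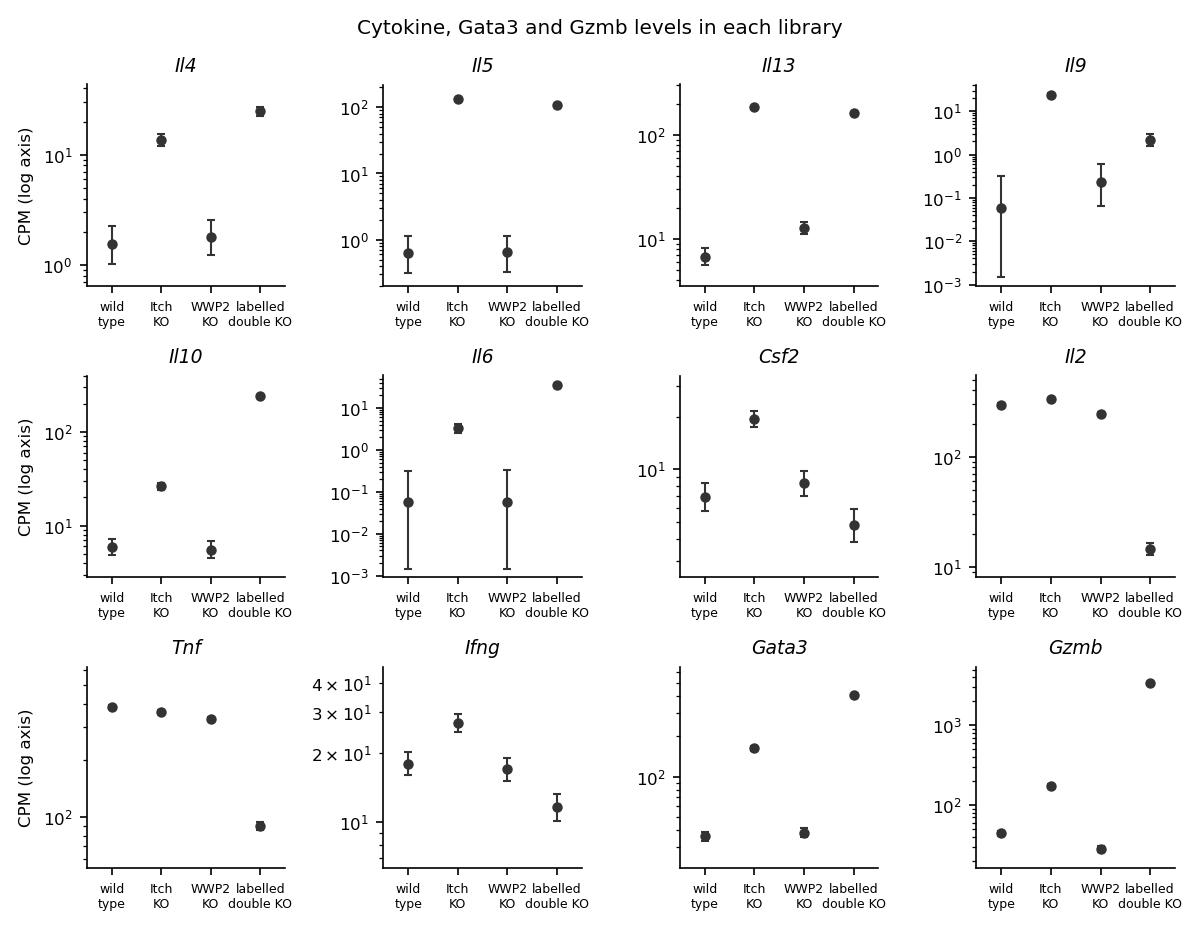
Each panel gives the level of 1 gene in CPM on a log axis in the 4 libraries, with exact Poisson 95% intervals that cover counting error only and are often smaller than the points. Il10, Il6, Gata3 and Gzmb climb from Itch KO to the library labelled double KO, Il5 and Il13 stay close to the Itch KO level, and Il9, Csf2, Il2, Tnf and Ifng lie below it.

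The regulators and surface genes of TH2 cells divided as well. Of 14 measured, 7 were higher and 2 lower, with a median of 1.01. Gata3, the master regulator of the TH2 fate, had 621, 2814, 654 and 7536 reads, 2.50-fold above Itch KO (2.39 to 2.61). Maf, which promotes Il4 and Il10 transcription, had 470, 1173, 509 and 5066. Epas1, the hypoxia-inducible factor HIF-2 alpha, had 298, 1134, 279 and 18116, a 14.9-fold second step. All 3 were high in the 2 libraries with an Itch-deficient label. Pparg, a lipid-sensing nuclear receptor of TH2 cells, had 14, 91, 6 and 252. The lower genes were Hlf, with 47, 350, 33 and 148 reads, and Rora, with 277, 377, 284 and 176. The Itch substrate gene Junb had 8819, 14056, 8008 and 15843 reads, a second step of 1.05-fold. Il1rl1 and Gata3 are also marker genes of type 2 innate lymphoid cells. The markers of those cells that stand in no program list, mainly Thy1, summed to 172, 217, 155 and 321 CPM, while Kit had 429, 188, 493 and 85 reads. The part of these cells in the result was not tested.

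Coinhibitory and TNF receptor family genes went in both directions. Coinhibitory receptors restrain T cells after activation, but the list also holds costimulatory receptors. Of 20 measured, 6 were higher and 3 lower, and the median was 0.09. Entpd1 (CD39, an ectoenzyme on the path from ATP to adenosine) had 39, 144, 53 and 2205 reads. Tnfrsf8 (CD30) had 99, 301, 74 and 2624, and Havcr2 (TIM-3) had 45, 486, 38 and 3850. Lag3, a receptor for class II molecules, had 49, 234, 57 and 1716. The 4 stood between 6.84-fold and 14.3-fold above Itch KO. Btla had 5330, 6049, 5052 and 2188 reads and Cd200 had 2157, 2676, 2574 and 915, both lowest in the library labelled double KO. Pdcd1 (PD-1) had 530, 845, 451 and 617 and did not pass. Tnfrsf4 (OX40) and Tnfrsf9 (4-1BB), costimulatory receptors that Itch KO had raised more than 2-fold, stayed level at 1.06-fold and 1.22-fold.

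Genes linked to regulatory T cells had a median of 0.07, with 3 of 16 higher and 1 lower. Penk, the enkephalin precursor, had 968, 2443, 933 and 14354 reads, and Itgae (CD103) had 63, 337, 95 and 1304. Foxp3, the regulator that defines the lineage, had 3005, 5029, 3791 and 3039 reads, 1.77-fold lower than in Itch KO, inside the limits of the rule. Gpr83 had 167, 416, 243 and 182 and turned back. The 3 higher genes were Penk, Itgae and Ebi3, a subunit of IL-35, with 33, 81, 32 and 208 reads.

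Chemokine receptors and integrins changed their mix. Of 16 receptors 4 were higher and 3 lower. Ccr1, a receptor for inflammatory chemokines, had 5, 39, 7 and 988 reads, 23.6-fold above Itch KO (17.2 to 33.5), and Ccr2 had 412, 1860, 368 and 10264. Ccr7, which brings naive cells into lymph nodes, had 12601, 9584, 12378 and 3258, lowest in the library labelled double KO. Among 13 integrin genes 4 were higher and 2 lower. Itga2 (CD49b) had 16, 185, 21 and 1001 reads, whereas Itga4 had 749, 934, 984 and 405. Ccr1 and Ccr2 were thus high in the library in which Ccr7 was low.

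Naive cell genes were not uniformly lower. Of 24 measured, 7 were lower and 2 higher. Tcf7, the gene of TCF-1, had 16212, 6746, 16727 and 3257 reads and fell at both steps. Bach2, a repressor of effector genes, had 5943, 3497, 6428 and 1225, and Actn1 (alpha-actinin) had 5222, 5841, 5976 and 1389. Il7r, the IL-7 receptor, went the other way, with 876, 1188, 1070 and 4848 reads.

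The largest single ratios came from genes nearly silent in Itch KO. Klk1b22, of a kallikrein family with near-identical members between which reads can be misassigned, had 0, 0, 115 and 508 reads, at least 158-fold above Itch KO when the 0 is set to 3 counts. It had reads only in the 2 libraries whose labels name WWP2. Ifi27l2b had 0, 0, 0 and 189 reads, at least 58.8-fold higher, and has a close relative in the genome. Efna5, an ephrin that binds Eph receptors, had 0, 17, 1 and 1113 reads. Gfra2, a receptor for neurturin, had 1, 4, 1 and 332, and Cyp11a1, the enzyme that starts steroid synthesis, 6, 13, 4 and 358. In these last 3 Itch KO was higher than wild type, but by few reads. Csf1, the macrophage growth factor, had 94, 230, 124 and 4721 reads, a 19.2-fold second step from a level that was already measurable. Akap6, B3galt2, Gnai1 and Stbd1 were also among the 15 highest ratios, each with at most 8 reads in Itch KO and between 239 and 359 in the library labelled double KO.

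Genes on other lists stood out singly. Of 16 genes on the axon guidance list 6 were higher and 2 lower. The higher ones included Efna5 and Sv2c, which encodes a synaptic vesicle protein rather than a guidance protein and had 7, 129, 11 and 1687 reads. Of 12 matrix and protease genes 6 were higher and 1 lower. Adamtsl3, a secreted matrix protein, had 0, 4, 0 and 327 reads, and the protease gene Adamts6 had 449, 488, 533 and 67. Of 23 lysosome genes 6 were higher and 1 lower, none of which had passed in Itch KO. The cathepsin D gene Ctsd had 1254, 1443, 1147 and 4100 reads, and Ctsa, a protective lysosomal protease, 728, 930, 723 and 2837. Both were thus higher in the library labelled double KO alone.

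Early activation cytokines were lower in the library labelled double KO. PMA and ionomycin normally induce these genes within hours. Of 15 measured, 9 were at least 2-fold lower than in Itch KO and 1 was higher, with a median of -1.24. In Itch KO against wild type 1 had been higher and 1 lower, with a median of 0.47. Il2, the growth factor that activated T cells make first, was the gene lowest of all, with 5139, 5779, 4226 and 270 reads, a fall to 0.0436 times the Itch KO level (95% interval 0.0384 to 0.0493). Tnf had 6662, 6270, 5690 and 1673 reads, and its neighbour in the family, Lta, had 1827, 2039, 2218 and 515. The first 3 libraries lay close together for each of these genes, and the library labelled double KO lay below all of them.

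Cd40lg, Tnfsf11, Il22 and Ifng were also lowest in the library labelled double KO, but for these Itch KO stood above wild type. Cd40lg, through which T cells license B cells, had 4473, 6086, 4198 and 1987 reads. Tnfsf11 (RANKL) had 1935, 2722, 1569 and 628. Il22, an epithelial defence cytokine, had 129, 192, 100 and 26 reads. Ifng, the TH1 cytokine, had 312, 469, 291 and 216, and its regulator Tbx21 2402, 2754, 2370 and 1262. Il21 had 97, 312, 84 and 177 and did not pass, and Il17a had at most 8 reads in any library. The exception that was higher was Osm, oncostatin M, with 166, 258, 201 and 652 reads.

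Chemokine genes had a similar pattern. Of 7 measured, 4 were lower and 1 higher, with a median of -1.26. Ccl4 had 287, 526, 513 and 87 reads, Ccl3 64, 98, 121 and 18, and Xcl1 67, 57, 53 and 7. Ccl5 had 239, 709, 149 and 317 and turned back after a rise in Itch KO. Cxcl3, a neutrophil attractant, was the higher member, with 15, 342, 27 and 1421 reads.

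Upstream genes of activation did not all share this fall. Of 28 immediate early genes 4 were lower and 1 higher, and the median was -0.11. Irf4, a transcription factor whose level follows T cell receptor strength, had 67135, 69910, 66244 and 34474 reads, Myc 15294, 22929, 15930 and 11119, and Cd69, an early surface marker, 37336, 29796, 32707 and 15799. Each of these 3 was lowest in the library labelled double KO. Fos, an AP-1 subunit, had 1208, 2173, 1249 and 3922 reads and Jun 574, 1161, 719 and 2212, both highest there. Neither Fos nor Jun passed the rule in the second step. Of 21 NF-kB pathway genes 1 was higher and none lower, and of 32 T cell receptor signalling genes 2 were higher and 2 lower. Among the latter Cd4 had 4069, 4262, 2901 and 9441 reads. Of 15 MAP kinase feedback genes 2 were higher and 4 lower. Spry1, an inhibitor of that pathway, had 2666, 4675, 3487 and 649 reads, and the phosphatase gene Dusp16 433, 561, 435 and 2524.

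Ribosome biogenesis was lower in the second step alone. These genes build ribosomal RNA and assemble ribosomes in the nucleolus. All 31 measured genes had a ratio below 0, with a median of -0.98, and 14 were at least 2-fold lower than in Itch KO. In the first step none of the 31 passed in either direction, and the median was 0.03. Ncl (nucleolin) had 64167, 66429, 58419 and 30169 reads, Npm1 (nucleophosmin) 37844, 37163, 33322 and 19314, and Polr1b, a subunit of RNA polymerase I, 5566, 6025, 5190 and 2332. The first 3 libraries again lay together. Ratios lay close to the 2-fold limit, so the count of 14 depends on the scaling: it was 8 when only library totals were used, and Npm1 then fell just short, as did Cd69. Ribosomal protein genes did not take part. Their median was -0.13, and none of 34 passed.

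Amino acid supply genes were lower too. Of 27 genes of the amino acid response and the tRNA synthetases, 8 were lower and 1 higher, with a median of -0.82. Slc7a11, the cystine transporter, had 203, 61, 103 and 7 reads, Slc1a4, a neutral amino acid transporter, 1161, 546, 909 and 159, and Trib3, a target of ATF4, 454, 191, 279 and 61. These 3 fell at both steps. Slc7a1, an arginine transporter, had 14452, 16483, 13459 and 6937 and fell only at the second. Atf4, which drives the response, stood at 0.931 times its Itch KO level.

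Other metabolic lists moved little. Of 33 oxidative phosphorylation genes none passed, with a median of 0.23. Of 24 glycolysis and hypoxia genes 1 was higher and 1 lower, with a median of 0.37. Of 24 cholesterol and fatty acid synthesis genes 3 were higher and none lower, and of 30 genes of folding and secretion in the endoplasmic reticulum 1 was higher, with a median of 0.33.

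**Figure D4:**
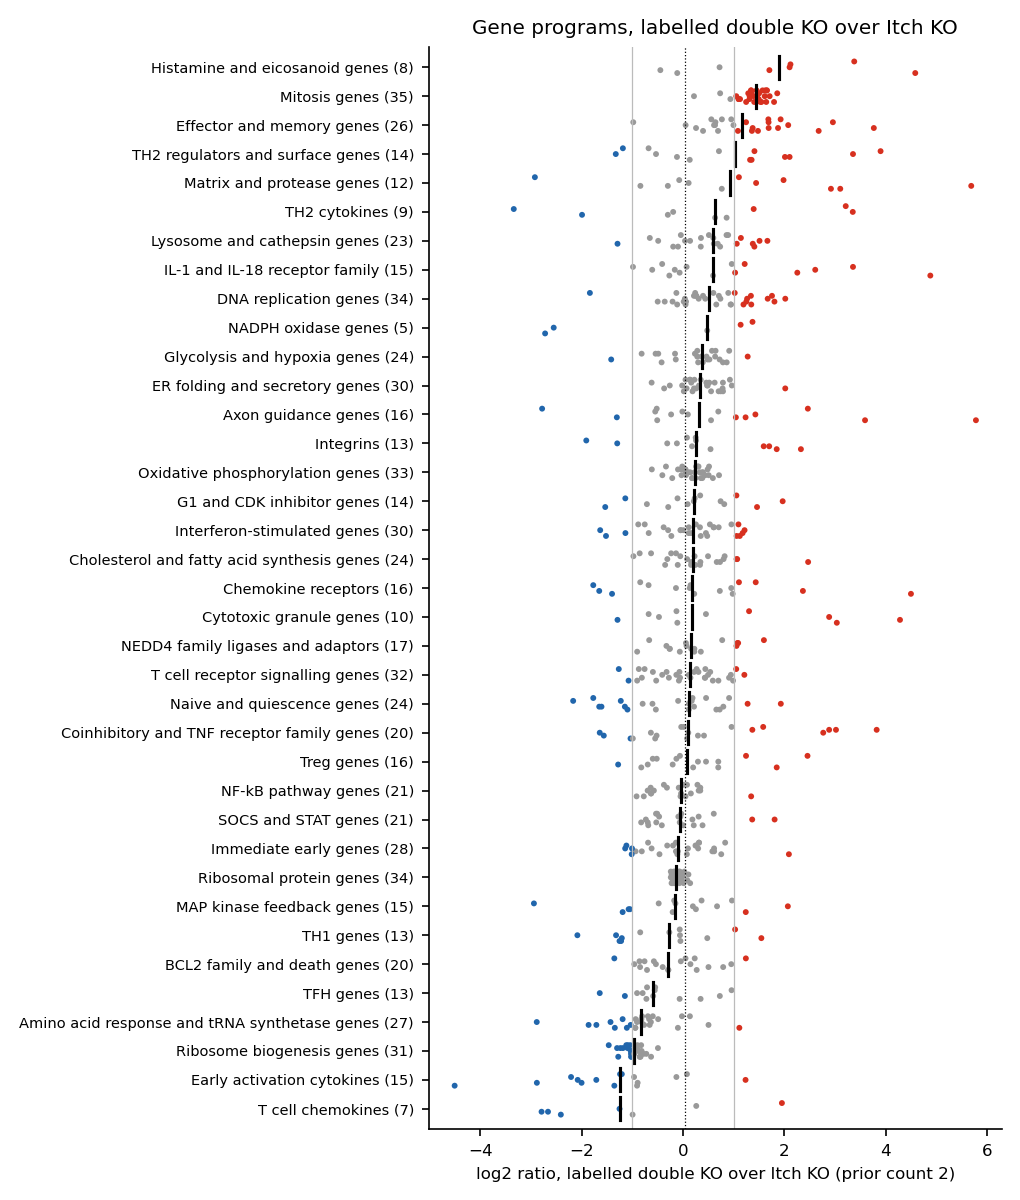
Each dot is 1 measured gene of the list named at the left, with the number of measured genes in brackets, on the log2 ratio of the library labelled double KO over Itch KO with a prior count of 2. Red and blue dots are at or beyond 1 in either direction (grey lines), black bars are list medians, and the dotted line is the median of all 9926 genes. Histamine and eicosanoid, mitosis, and effector and memory genes lie highest, and early activation cytokines and T cell chemokines lowest.

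Among the most abundant genes that were level in Itch KO and then higher were parts of the actin cytoskeleton and its regulators. Actg1, gamma actin, had 32530, 44038, 30878 and 94774 reads. Coro1a, an actin-binding protein of leukocytes, had 12164, 10652, 12229 and 26985, and Flna, which crosslinks filaments, 4697, 5980, 5373 and 14984. Fmnl1, a formin, and Rac1, a GTPase that steers actin, were 2.20-fold and 2.01-fold higher. Laptm5, a lysosomal protein that lowers receptor levels, had 9732, 9811, 9110 and 27417 reads, and Ucp2, a mitochondrial carrier, 4978, 5294, 4950 and 16021. For the 5 genes given by reads the library labelled double KO stood above the other 3. Actg1 and Rac1 fell just short of the rule under other scalings of the libraries.

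Of the 12 genes that Itch KO had raised most, 9 went further, namely Rnf152, Hdc, Cxcl3, Il6, Gzma, Cysltr1, Il1rn, Sv2c and Pros1, while Il5 and Il13 stayed level and Il9 turned back. Rnf152, a lysosomal ubiquitin ligase, had 2, 87, 5 and 485 reads, and Pros1, the anticoagulant protein S, 20, 312, 40 and 1211.

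A few genes turned back in the library labelled double KO after a change in Itch KO. Eomes, a T-box factor of cytotoxic and memory cells, had 162, 498, 133 and 124 reads. Slamf7, a surface receptor, had 1067, 2161, 1181 and 398, and Mpeg1, a pore-forming protein of phagocytes, 50, 212, 37 and 25. In these the last library fell below wild type as well. The class II genes H2-Aa and H2-Ab1 had 24, 207, 23 and 81 reads and 18, 147, 20 and 58, and were named after their values were seen. They are genes of antigen-presenting cells, and the 10 B cell marker genes summed to 3.75, 5.42, 3.21 and 1.72 CPM, highest in Itch KO as well. Their part in the result was not tested.

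Slc15a2, a peptide transporter, was the sharpest reversal in the other direction. It had 506, 5, 493 and 490 reads, 91.5-fold above Itch KO in the library labelled double KO (38.9 to 283), so that Itch KO alone was low. Eps8l1, an actin regulator, had 433, 93, 333 and 338 reads, and Fam105a 1010, 462, 1039 and 1497. St8sia1, which makes ganglioside GD3, had 1027, 220, 1069 and 509. For these 4 genes the library labelled double KO stood nearer to wild type than Itch KO did.

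Some genes held the Itch KO level. Furin, a protease that cuts precursor proteins, had 6333, 12953, 6798 and 16667 reads, and Cish, a feedback inhibitor of cytokine signalling, 3867, 9198, 4130 and 11189. Il16, which Itch KO had lowered, had 10832, 5377, 10253 and 6067. The second steps of these 3 lay between 1.05-fold and 1.20-fold. Other genes that Itch KO had lowered fell again: Ncf1, a subunit of the NADPH oxidase, had 1136, 322, 1208 and 57 reads, and the adhesion gene Amigo2 760, 185, 860 and 37. Of 5 measured NADPH oxidase genes 2 were higher and 2 lower. Cybb, the catalytic subunit, had 72, 122, 57 and 18 reads and was lower in the second step alone. Ncf4, with 306, 407, 330 and 960 reads, and Rac2, with 3106, 3791, 2935 and 10494, were higher. Carbonic anhydrase 2 (Car2), with 970, 767, 905 and 103 reads, was also among the 15 lowest ratios and had not passed in Itch KO.

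The remaining lists gave smaller counts. Of 13 TH1 genes 2 were higher and 5 lower, with a median of -0.27, and of 13 follicular helper genes none was higher and 2 were lower, with a median of -0.59. Bcl6, the regulator of follicular helper cells, stood at 0.953 times its Itch KO level. Of 30 interferon-stimulated genes 5 were higher and 3 lower. Of 21 SOCS and STAT genes 2 were higher, and of 20 BCL2 family and death genes 1 was higher and 1 lower. Of 17 measured genes of the NEDD4 family and its adaptors 4 were higher and none lower, among them Nedd4, with 45, 68, 34 and 157 reads, and Rnf128 (the ligase GRAIL), with 14, 33, 15 and 111.

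Markers of most other cells were low in both libraries, while the 6 T cell markers measured summed to 1553, 1402, 1448 and 1542 CPM. Genes of neutrophils, eosinophils, monocytes and erythroid cells that stand in no program list summed to at most 1.29 CPM each in any library. The CD8 genes Cd8a and Cd8b1 summed to 7.44, 15.9, 6.53 and 7.05 CPM. NK cell genes other than Gzma summed to 16.0, 10.3, 10.8 and 3.87 CPM, so they were lowest in the library in which the granzymes were highest. Markers of gamma delta and innate-like T cells summed to 17.8, 19.4, 18.4 and 3.44 CPM, of which Zbtb16, the regulator of innate-like T cells, had 277, 311, 293 and 40 reads. Dendritic cell genes summed to 23.3, 73.3, 19.4 and 97.6 CPM over 8 genes. Most of that sum came from class II-associated Cd74, which stayed level between the 2 libraries, and Xcr1 had 54, 113, 48 and 322 reads. Plasma cell genes outside the program lists summed to 0.923, 3.63, 1.92 and 10.2 CPM, mainly from Sdc1, with 7, 27, 13 and 172 reads. The part of these cells in the results was not tested.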

How the data were processed

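The authors deposited raw read counts per gene, with no normalization, in 1 table of 21937 gene symbols by 4 libraries. Bowtie 1.0.0, TopHat 1.4.1, HTSeq 0.7.1 and build mm9 appear among the tools and builds of the submitters' processing notes. Strand setting and gene annotation are not known from the sources used, so antisense, overlapping or near-identical genes can share reads. Intervals cover counting error only, since PCR copies of 1 molecule cannot be told from separate molecules here.

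Scaling used edgeR 4.0.16 in R 4.3.3 with TMM (trimmed mean of M values). The factors ran from 0.983 in Itch KO to 1.03 in the library labelled double KO. Ratios, exact conditional binomial intervals and counts were computed in Python 3.11.15 with numpy 2.4.6, pandas 2.3.3 and scipy 1.17.1, and drawn with matplotlib 3.10.9. The size rule was run on simulated counts with known folds and assumed spreads, since the spread between replicates could not be measured here. That run does not show how often the rule errs in these libraries. A fold against 0 reads used a floor of 3 counts in that library. Promoter windows were taken from RefSeq by symbol.

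The members and the lists (37 programs and 15 cell types) were chosen with earlier results of these data known. Named genes were the 2 targets; from the second step, 15 genes at each end; the 8 strongest reversals per direction; the 12 highest and 8 lowest genes of Itch KO; the 6 most abundant level genes; the 8 most abundant genes per direction that passed in the second step only; 22 cytokine and lineage genes; and up to 4 members at each end of a list, with members whose role is described. Rankings skipped unnamed gene models, small RNAs, receptor segments, Xist, Tsix and Y-linked genes, while other X-linked genes stayed in. Mid1, Setbp1, Csf1, the class II genes, Cd74, Xcr1, Kit, Thy1, Sdc1 and the further genes compared between the WWP2-labelled libraries were chosen after their values were seen. The alternatives were other scalings, filters, prior counts, fold limits, level limits and WWP2 KO in place of wild type. A few genes that the rule names are not reported here.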

Additional observations from a re-analysis of the deposited data

Results flagged for a closer look

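For 5 genes the library labelled double KO moved from Itch KO in the direction opposite to that in which WWP2 KO moved from wild type, each past the size rule. The pairs share no library, there is 1 library on each side, and the difference between the directions was not tested. Rpph1, the RNA component of ribonuclease P, had 33, 40, 11 and 131 reads (wild type, Itch KO, WWP2 KO, library labelled double KO), with log2 ratios of -1.42 and 1.57 for the 2 pairs. Mt1, which encodes a zinc-binding metallothionein, had 40, 88, 6 and 735 reads in the same order, with a log2 ratio of -2.38 for WWP2 KO over wild type and of 2.93 for the other pair. Mt2, its neighbour in the same family, had 28, 66, 8 and 282 reads and log2 ratios of -1.57 and 1.96. Cd7, a surface glycoprotein of T cells, had 19, 77, 7 and 316 reads and log2 ratios of -1.21 and 1.91. Cxcl16, a chemokine that binds Cxcr6, had 27, 53, 57 and 17 reads and log2 ratios of 1.04 and -1.62.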

How the results depend on the processing

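Among the genes named by rank or by name, those past the size rule kept their direction under every alternative for which single genes were computed. Single genes and lists were not computed with the 3-fold rule, the narrower level limit or WWP2 KO in place of wild type. Nor were they computed with TMM from the 2 compared libraries. The gene Bcl6, which did not pass, moved from a log2 ratio of -0.07 to 0.002 with library totals alone. No paired analysis was possible because each genotype gave 1 library. Counts followed the limits chosen. With a mean of at least 10 CPM in place of 2, 452 genes were higher, 134 raised genes went further, 50 stayed level and 10 reversed, and 16 lowered genes stayed level and 4 reversed. With no filter on low values these were 1421 higher, 150 raised level, 70 raised reversed, 54 lowered level and 26 lowered reversed. With a 3-fold rule 332 genes were higher and 113 lower, 109 raised genes went further, 20 stayed level and 5 reversed, and 7 lowered genes went further, 4 stayed level and 2 reversed. With a narrower level limit 46 raised and 19 lowered genes stayed level, and with WWP2 KO in place of wild type 17 lowered genes reversed. The other 52 alternative counts lay within 1.5 times of the values given. Higher genes made up 64.0% of those past the rule. Under other scalings this share was 58.6% (TMM from the 2 compared libraries) to 71.2% (library totals), and the median of all genes moved by at most 0.07. The share also depended on the limits, with 56.8% at a mean of at least 10 CPM and 74.6% with the 3-fold rule. Of the single-gene values under alternatives 619 kept their side of the rule and 11 fell short of it, for Actg1, Rac1, Cd69, Mybbp1a, Npm1, Oxnad1 and Zfp772. Of the list counts 479 stayed within 1.5 times and 39 did not. At 10 CPM 14 mitosis genes and 2 DNA replication genes were higher, since fewer of their genes were compared. Leaving out a replicate was not possible with 1 library per genotype.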

Other observations

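Genes that moved the same way in both pairs that share no library were few. Besides Mid1, Setbp1 and Klk1b22, the 15 genes higher in both WWP2 KO against wild type and the library labelled double KO against Itch KO included Alox8, a lipoxygenase, with 10, 20, 22 and 358 reads, Arrdc4, an arrestin-like adaptor of NEDD4 family ligases, with 37, 66, 97 and 149, and Rbl2. Pstpip2, an actin-associated adaptor, was also among them, with 19, 6, 251 and 32 reads. The 2 genes lower in both were Fgfbp3, a secreted protein that binds growth factors, with 71, 46, 26 and 22 reads, and Tmco7, with 490, 381, 231 and 135. These genes were chosen after their values were seen.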
